A study of Homo sapiens with 16 samples.

Results

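The secreted factors that act on blood and lymph vessels were followed across the libraries as a fixed set of 10 genes: VEGFA, VEGFB, VEGFC, VEGFD and PGF of the VEGF family, the angiopoietins ANGPT1 and ANGPT2, the angiopoietin-like ANGPTL4, and the heparin-binding factors FGF2 and HGF. They were found by name through the gene annotation, all 10 were among the 60649 genes of the count table, and all 10 passed the filter on low counts that kept 19103 genes for testing. The cells were the line ASC52telo, adipose mesenchymal stem cells (MSCs) immortalized with telomerase and wild type by label, so that the 4 biological replicates of a group are cultures of 1 line. All cultures were grown in α-MEM with fetal bovine serum. Young MSCs without any addition (MmC-/GDF11-) were compared with young MSCs given growth differentiation factor 11 (MmC-/GDF11+), with senescent MSCs (MmC+/GDF11-) and with senescent MSCs given GDF11 (MmC+/GDF11+). Mitomycin C (MmC), which alkylates DNA, was present for 18 h at 1.5 µg/mL, GDF11 was added at 10 ng/mL, and RNA was taken after 10 days.

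VEGFA drives the growth and the leakiness of blood vessels through the receptors KDR and FLT1, PGF and VEGFB bind FLT1 but not KDR, and VEGFC and VEGFD act mainly on lymphatic vessels through FLT4 once proteases have trimmed them. ANGPT1 activates the receptor TEK and steadies vessels, while ANGPT2 in many settings opposes it. FGF2 and HGF signal through FGF receptors and MET, and ANGPTL4 is best known as an inhibitor of lipoprotein lipase that PPAR factors and hypoxia induce. MSCs release such factors and are studied for their support of vessel growth, and many of the factors are also counted among the secretions of senescent cells.

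Library totals lay between 71275337 and 144204979 counts. Values are CPM, counts scaled to a common library size with TMM factors, n = 4 libraries per group throughout, and ± gives the SD unless SE is named. MSC markers (NT5E, THY1, ENG, CD44, ITGB1 and PDGFRB) summed to 5089.9 to 6698 CPM in every library, against 9.28 to 24.3 CPM for 7 endothelial markers, 9.56 to 21.7 CPM for 4 blood cell markers and 0.512 to 1.13 CPM for 2 epithelial markers. In the check of senescence after MmC without GDF11, the cell cycle inhibitor CDKN1A rose from 226 ± 70.6 to 1507 ± 395 CPM, and the nuclear lamina gene LMNB1 fell from 50.8 ± 16.8 to 8.17 ± 3.12 CPM. The proliferation gene MKI67 fell from 115 ± 41.0 to 35.3 ± 13.4 CPM, and CDKN2A was at 0.905 ± 0.224 and 1.06 ± 0.294 CPM and was not called. Libraries of replicate 1 stood apart in several genes of the set, so the counts of calls are also given without them. In bulk RNA a change in the number of expressing cells and a change in RNA per cell cannot be told apart.

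Most of the set was higher after MmC. Without GDF11, 7 of the 10 genes rose (VEGFA, VEGFC, VEGFD, PGF, ANGPT1, ANGPTL4 and FGF2) and 1 fell (ANGPT2), by edgeR's quasi-likelihood test with an adjusted p below 0.05. Of all genes tested 45.3% were called in this comparison, 22.9% higher and 22.4% lower. With GDF11 present in both arms the same 7 genes rose and none fell, where 46.7% of all genes were called, 23.4% higher and 23.3% lower. The median log2 fold change of the 10 genes was 0.92 without and 0.87 with GDF11, and that of all genes tested was -0.01 in each. All 4 senescent libraries lay above all 4 young ones for 5 of the 10 genes without GDF11 (VEGFC, PGF, ANGPT1, ANGPTL4 and FGF2), as 4 and 4 libraries did not overlap in either direction for 37.3% of all genes (19.1% higher). With GDF11 it was 6 of 10, VEGFD being the addition, against 41.5% of all genes (20.2% higher). Without replicate 1 of every group, 8 genes were called in each comparison, 7 higher and ANGPT2 lower, beside 51.7% of all genes tested without GDF11 and 52.6% with it. VEGFB and HGF were called in neither comparison by this test.

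**Figure D1:**
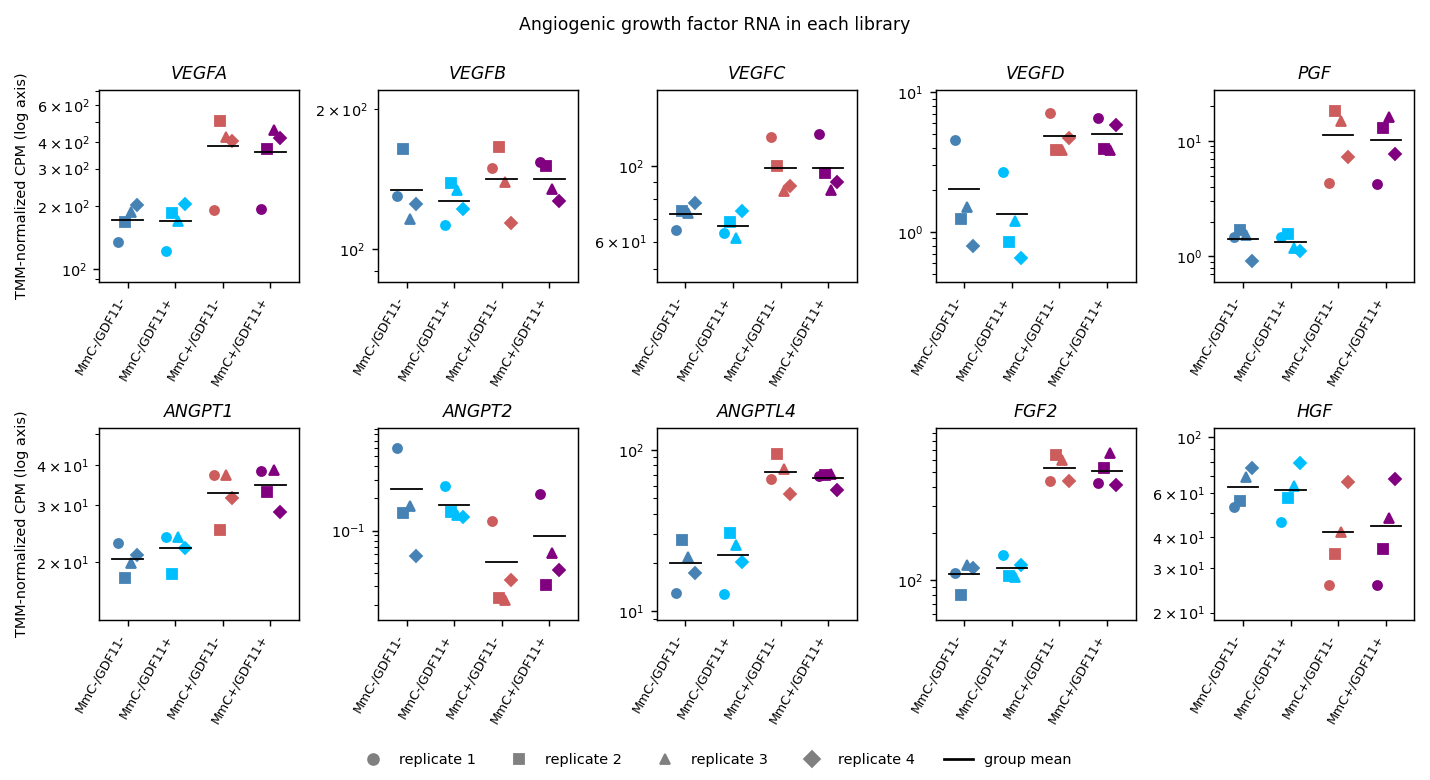
TMM-normalized CPM (log axis, a separate range for each gene) of the 10 genes in the 16 libraries, by group. Each symbol is 1 library, its shape gives the replicate number, and the black line is the group mean; FGF2 in senescent MSCs sat between 411 and 667 CPM, above all young libraries (79.8 to 144 CPM), while HGF was lowest in replicate 1 and highest in replicate 4 of every group.

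The DNA before 4 of these genes is shown for reading beside the levels: FGF2 and ANGPTL4 as called genes with a hypoxia response core, VEGFD as the gene with an AP-1 site, and VEGFB as a gene that was not called. The windows are RefSeq's, 250 bases before the start of the gene on GRCh38.p14, printed 5′ to 3′ on the strand of the gene and cut short where an annotated exon lies in the window. For ANGPTL4 and FGF2 that start lies inside the wider gene span of GENCODE. The printed FGF2 run thus covers only positions -250 to -150 from the start, with its core at -156 to -152. Capitals mark the hypoxia response core (ACGTG or GCGTG) and the AP-1 site (TGANTCA), each searched on both strands.
FGF2, chr4:122826581-122826681, plus strand: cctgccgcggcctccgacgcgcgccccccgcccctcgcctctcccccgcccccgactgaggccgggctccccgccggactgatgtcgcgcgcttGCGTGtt
ANGPTL4, chr19:8363905-8364154, plus strand: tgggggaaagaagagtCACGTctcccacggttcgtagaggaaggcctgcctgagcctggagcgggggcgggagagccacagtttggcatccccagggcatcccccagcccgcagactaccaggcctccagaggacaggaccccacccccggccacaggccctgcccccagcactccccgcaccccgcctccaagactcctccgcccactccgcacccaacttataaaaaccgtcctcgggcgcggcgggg
VEGFD, chrX:15384414-15384663, minus strand: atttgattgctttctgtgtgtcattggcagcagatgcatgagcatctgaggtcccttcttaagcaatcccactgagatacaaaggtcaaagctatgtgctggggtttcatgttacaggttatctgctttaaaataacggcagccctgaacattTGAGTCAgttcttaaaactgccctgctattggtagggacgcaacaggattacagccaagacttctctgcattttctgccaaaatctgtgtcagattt
VEGFB, chr11:64234353-64234583, plus strand: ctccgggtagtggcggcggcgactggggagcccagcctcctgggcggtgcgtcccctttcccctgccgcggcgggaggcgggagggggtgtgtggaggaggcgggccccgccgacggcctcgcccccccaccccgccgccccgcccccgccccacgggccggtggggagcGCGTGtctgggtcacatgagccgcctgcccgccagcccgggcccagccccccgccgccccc

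Of the 10 genes, 7 had such a window and VEGFA, ANGPT1 and ANGPT2 were not analysed here. A hypoxia core was found in 5 of the 7 (VEGFB, VEGFC, ANGPTL4, FGF2 and HGF), and in 43.2% of all 35116 windows of that length. The GC box GGGCGG was found in 5 of the 7 (VEGFB, VEGFC, PGF, ANGPTL4 and FGF2) and in 42.6% of all windows. An AP-1 site was found in VEGFD alone, at 97 to 91 bases before the start, and in 6.57% of all windows. The VEGFD window also had the lowest G and C content of the 7, at 43.2%, and that of VEGFB the highest, at 82.8% with 6 GC boxes. Of the 5 genes with a core, 3 were called after MmC in the fit without a replicate block (VEGFC, ANGPTL4 and FGF2), and VEGFB and HGF were not. With the replicate number as a block HGF was called lower (log2 -0.67 without and -0.53 with GDF11).

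FGF2 (chr4:122826682-122898236, plus strand, hg38), a mitogen of fibroblasts and endothelium that leaves cells without a signal peptide, had the smallest adjusted p of the set. It was at 111, 79.8, 124 and 119 CPM in the 4 MmC-/GDF11- libraries and at 439, 649, 600.0 and 436 CPM in the 4 MmC+/GDF11- libraries. With GDF11 the young libraries had 144, 106, 104 and 124 CPM and the senescent ones 424, 529, 667 and 411 CPM. Senescent and young libraries did not overlap in either pair of groups. The fold change was 4.89 (log2 2.29 ± 0.194 SE, adjusted p = 3.2e-07, edgeR) without GDF11 and 4.26 (log2 2.09 ± 0.192, adjusted p = 7.32e-07) with it. NUDT6, which lies on the opposite strand, shares 11.8% of the exonic bases of FGF2 and whether counting used the strand is not given in the sources used here. NUDT6 was itself at 5.80 ± 0.665 CPM in MmC-/GDF11- and 3.10 ± 0.493 CPM in MmC+/GDF11-.

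PGF (chr14:74941834-74955626, minus strand), placenta growth factor, had the largest fold change of the set. The MmC-/GDF11- libraries had 1.48, 1.71, 1.53 and 0.916 CPM and the MmC+/GDF11- libraries 4.28, 18.2, 15.0 and 7.30 CPM. In the presence of GDF11 it was at 1.46, 1.58, 1.18 and 1.12 CPM in young and at 4.23, 12.8, 16.1 and 7.76 CPM in senescent MSCs. All senescent libraries were above all young ones, and replicate 1 was the lowest senescent library in both groups. The fold change was 7.95 (95% interval 4.06 to 15.6, adjusted p = 0.000103, edgeR) without and 7.69 (3.92 to 15.1, adjusted p = 0.000119) with GDF11. The gene is not abundant: it rested on 92 to 2362 counts per library.

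VEGFA (chr6:43770184-43786487, plus strand) was one of the more highly counted genes of the set, and its groups overlapped. Young MSCs without GDF11 had 134, 167, 186 and 202 CPM and senescent ones 191, 506, 422 and 407 CPM. The corresponding values with GDF11 were 122, 184, 169.5 and 204 CPM in young and 192, 371, 458 and 421 CPM in senescent MSCs. Replicate 1 was the lowest library of every group, and in senescent MSCs it lay among the young libraries while the other 3 lay above all of them. VEGFA rose 2.21-fold (log2 1.15 ± 0.287 SE, adjusted p = 0.00451, edgeR) without and 2.12-fold (log2 1.08 ± 0.287, adjusted p = 0.00618) with GDF11.

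VEGFC and VEGFD, the lymphatic members, rose in both comparisons. VEGFC (chr4:176683538-176792922, minus strand) was at 65.0 to 78.0 CPM in MmC-/GDF11- and 84.5 to 122 CPM in MmC+/GDF11-, and at 61.7 to 73.8 and 85.1 to 124 CPM with GDF11. That was 1.36-fold (adjusted p = 0.01, edgeR) and 1.48-fold (adjusted p = 0.00217) higher, with no overlap. VEGFD (chrX:15345596-15384413, minus strand) had 4.59, 1.24, 1.52 and 0.790 CPM in MmC-/GDF11- and 7.07, 3.89, 3.87 and 4.70 CPM in MmC+/GDF11-. Replicate 1 of the young group was the one that overlapped the senescent libraries. With GDF11 there was no overlap: young MSCs had 2.68, 0.845, 1.20 and 0.648 CPM, and senescent ones 6.51, 3.96, 3.84 and 5.87 CPM. VEGFD rose 2.41-fold without GDF11 (log2 1.27 ± 0.497 SE, adjusted p = 0.0483, edgeR) and 3.76-fold with it (log2 1.91 ± 0.510, adjusted p = 0.00658). In the fit without a replicate block the call without GDF11 was narrow. It held in 3 of the 16 fits that left out 1 library (replicate 1 of MmC-/GDF11-, and replicate 1 or 4 of MmC-/GDF11+), over which the log2 fold change was 1.01 to 2.06 and the adjusted p 0.00144 to 0.125. When replicate 1 of every group was left out the log2 fold change was 1.82 with an adjusted p of 3.86e-05. With the replicate number as a block it was 1.47 (adjusted p = 0.00121, edgeR). Between libraries of the same number VEGFD was 1.54 to 5.94-fold higher, in 4 of 4 pairs.

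VEGFB (chr11:64234584-64239264, plus strand), best known for roles in heart and fat tissue, was not called. It was at 116 to 164 CPM in MmC-/GDF11-, 113 to 139 CPM in MmC-/GDF11+, 114 to 166 CPM in MmC+/GDF11- and 127 to 154 CPM in MmC+/GDF11+. All 4 groups overlapped. The ratio of senescent to young was 1.06 (95% interval 0.885 to 1.28) without and 1.12 (0.928 to 1.34) with GDF11, with adjusted p of 0.585 and 0.322 (edgeR), so that the intervals leave room for a rise of up to 1.28-fold and 1.34-fold.

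Of the angiopoietins, ANGPT1 rose and ANGPT2 fell without GDF11. ANGPT1 (chr8:107249482-107498055, minus strand) was at 22.9, 17.9, 19.8 and 21.0 CPM in MmC-/GDF11- and at 37.2, 25.2, 37.3 and 31.6 CPM in MmC+/GDF11-. With GDF11 it was at 23.9, 18.4, 23.9 and 22.1 CPM in young and at 38.3, 32.9, 38.6 and 28.7 CPM in senescent MSCs. No senescent library reached down to the young ones, and the gene rose 1.61-fold (log2 0.69 ± 0.136 SE, adjusted p = 0.000744, edgeR) and 1.57-fold (log2 0.65 ± 0.136, adjusted p = 0.0011).

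ANGPT2 (chr8:6499632-6563409, minus strand) rested on 2 to 46 counts per library. MmC-/GDF11- libraries had 46, 14, 13 and 6 counts (0.598, 0.145, 0.170 and 0.0578 CPM), and MmC+/GDF11- libraries had 12, 2, 2 and 3 counts (0.122, 0.0233, 0.0223 and 0.0345 CPM). With GDF11 there were 19, 11, 11 and 12 counts in young and 16, 3, 9 and 4 in senescent MSCs. Replicate 1 was the highest library of each group, and the groups overlapped through it. The ratio was 0.223 (95% interval 0.0745 to 0.669, adjusted p = 0.0267, edgeR) without GDF11, a fall that was no longer called without replicate 1 of MmC-/GDF11- (log2 -1.20, adjusted p = 0.172), nor without replicate 2, 3 or 4 of MmC+/GDF11- (adjusted p = 0.0706, 0.0731 and 0.0667). With the replicate number as a block the fall without GDF11 was called (log2 -2.15, adjusted p = 0.000393, edgeR). Between libraries of the same number the ratio was 0.131 to 0.597, below 1 in 4 of 4 pairs. With GDF11 the ratio was 0.487 (0.169 to 1.41, adjusted p = 0.254), and without replicate 1 of every group it was called (log2 -1.56, adjusted p = 0.00963). MCPH1, on the opposite strand, shares 9.69% of the exonic bases of ANGPT2 and was at 13.2 to 20.3 CPM, and without use of the strand reads on these shared bases cannot be assigned to 1 of the 2 genes.

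Per length, ANGPT2 amounted to 1.19 ± 1.06% of ANGPT1 in MmC-/GDF11- and 0.154 ± 0.127% in MmC+/GDF11-. With GDF11 the share was 0.813 ± 0.252% in young and 0.255 ± 0.231% in senescent MSCs (SD). Between libraries it ran from 0.289 to 2.74% in MmC-/GDF11- and from 0.0628 to 0.343% in MmC+/GDF11-, which overlap. ANGPT1 was thus the dominant transcript of this pair in every library.

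ANGPTL4 (chr19:8363289-8374370, plus strand) rose several-fold. It was at 13.0, 27.6, 21.7 and 17.2 CPM in MmC-/GDF11- and at 65.8, 94.8, 75.9 and 53.3 CPM in MmC+/GDF11-. With GDF11, young MSCs had 12.8, 30.6, 25.9 and 20.2 CPM and senescent MSCs 68.9, 70.1, 70.7 and 56.2 CPM. The groups did not overlap. The gene rose 3.64-fold (log2 1.86 ± 0.263 SE, adjusted p = 5.28e-05, edgeR) without and 2.97-fold (log2 1.57 ± 0.261, adjusted p = 0.000202) with GDF11. Of its closest relatives, 3 of 7 were below the filter (among them ANGPT4, at 0 in all 4 MmC-/GDF11- libraries), 1 rose (ANGPTL6, from 0.120 to 0.275 CPM without GDF11) and 3 were not called.

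HGF (chr7:81699010-81770438, minus strand), hepatocyte growth factor, was not called in either comparison. It was at 52.6, 55.7, 69.5 and 75.8 CPM in MmC-/GDF11- and 25.8, 34.2, 42.0 and 66.1 CPM in MmC+/GDF11-. With GDF11 the values were 45.8, 57.3, 63.9 and 79.2 CPM in young and 25.8, 35.8, 47.8 and 68.0 CPM in senescent MSCs. Replicate 1 was lowest and replicate 4 highest in all 4 groups, and the groups overlapped. The ratio was 0.663 (95% interval 0.428 to 1.03, adjusted p = 0.116, edgeR) without GDF11 and 0.721 (0.465 to 1.12, adjusted p = 0.206) with it. Same-numbered libraries deviated together in the comparison without GDF11, and within a number the ratio was 0.490, 0.613, 0.604 and 0.873, below 1 in 4 of 4 pairs. With the replicate number as a block HGF was called there (log2 -0.67 ± 0.113 SE, adjusted p = 0.000151), and the count of called genes became 9 of 10, with 7 higher and 2 lower, beside 57.9% of all genes tested.

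**Figure D2:**
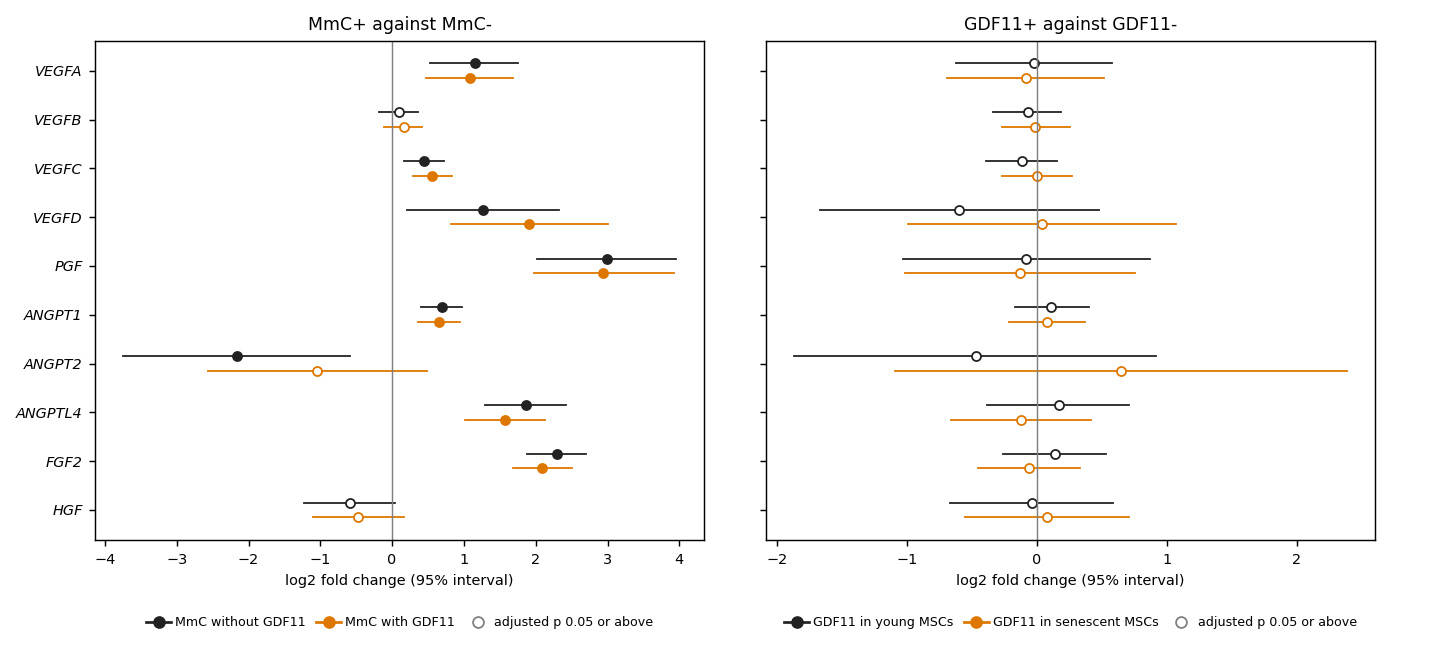
Log2 fold changes (horizontal axis) of the 10 genes with their 95% intervals from edgeR, for MmC+ against MmC- on the left and GDF11+ against GDF11- on the right, with filled points where the adjusted p was under 0.05. PGF (2.99 and 2.94) and FGF2 (2.29 and 2.09) lay farthest to the right for MmC, and all 20 intervals for GDF11 covered 0.

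**Figure D3:**
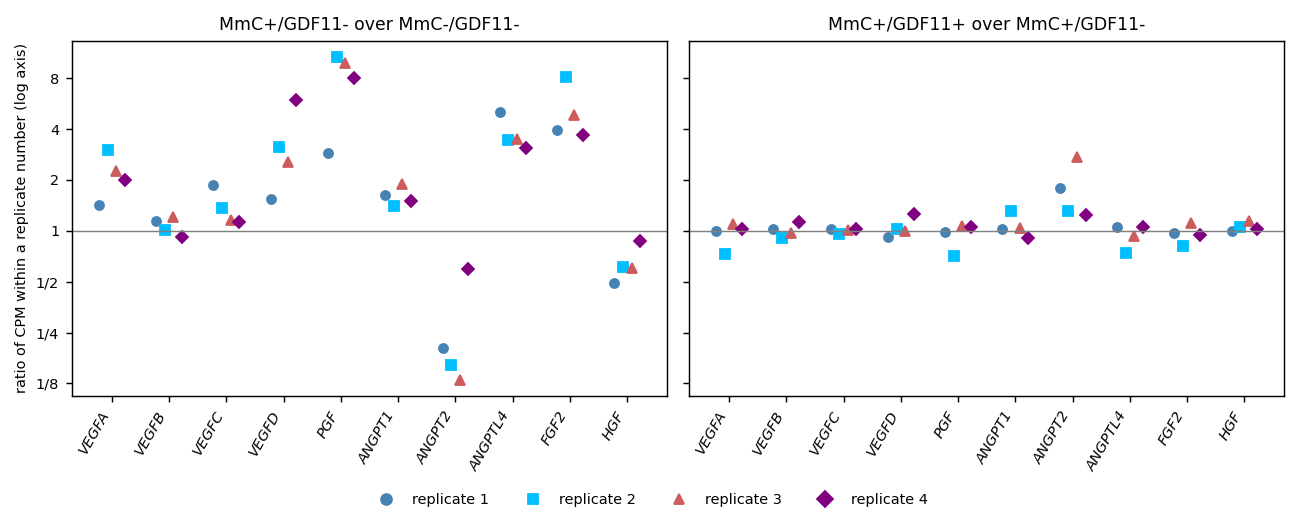
Ratio of CPM between libraries of the same replicate number (log axis, 1 means no difference) for the comparisons in which every same-numbered pair deviated together. Each symbol is 1 pair of libraries; HGF was below 1 in all 4 pairs after MmC (0.490 to 0.873), PGF was at 2.89 in replicate 1 and 7.97 to 10.7 in the others, and after GDF11 the ratios other than those of ANGPT2 lay between 0.706 and 1.31.

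GDF11 is studied as a factor that could reverse traits of ageing, and whether it altered these genes was asked in young and in senescent MSCs. In neither was any of the 10 genes called by edgeR (adjusted p = 1 for each), and none had an unadjusted p under 0.05. Of all genes 0.00% were called in each, with 226 (1.18%) and 96 (0.503%) genes at an unadjusted p under 0.05, and DESeq2 called 1 gene in young and 0 in senescent MSCs, none of them in the set. Both shares lie below 0.05, the share that a p under 0.05 takes when no gene changes, so this test may have missed changes. These values and the intervals below are from the fit without a replicate block. In senescent MSCs, where every same-numbered pair deviated together, the block also called 0 genes, with 145 at an unadjusted p under 0.05. In young MSCs it called 0 genes too, with 551 at an unadjusted p under 0.05. The precision differed between genes. For VEGFC the log2 fold change of GDF11+ over GDF11- was -0.11 (95% interval -0.39 to 0.16) in young and 0.00 (-0.27 to 0.27) in senescent MSCs, and for ANGPT1 the ratio was 1.08 (0.887 to 1.32) and 1.06 (0.866 to 1.29). The interval of FGF2 was 0.838 to 1.44 in young and 0.730 to 1.25 in senescent MSCs. That of VEGFA was 0.649 to 1.50 and 0.621 to 1.43. Changes of more than 2-fold lay inside the interval for VEGFD (0.313 to 1.40 in young and 0.505 to 2.10 in senescent MSCs). This also held for ANGPT2 (0.274 to 1.89 and 0.471 to 5.24) and for PGF (0.489 to 1.83 and 0.497 to 1.69).

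Whether the response to GDF11 differed between senescent and young MSCs was tested as an interaction. No gene of the set was called (0 of 10, adjusted p = 1 for each, edgeR), none had an unadjusted p under 0.05, and of all genes 0.00% were called, with 172 (0.900%) at an unadjusted p under 0.05. The ratio of ratios was 0.957 (95% interval 0.530 to 1.73) for VEGFA, 0.967 (0.393 to 2.38) for PGF and 0.871 (0.593 to 1.28) for FGF2. For ANGPT2, called without GDF11 and not called with it, the value was 2.18 (0.465 to 10.2), so a difference between its MmC effects was not shown.

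Levels of different genes were compared as FPKM, that is CPM per kilobase of the joined exons. In young MSCs without GDF11 the order was VEGFB (67.9 ± 10.6 FPKM), VEGFC (27.7 ± 2.07), FGF2 (16.0 ± 2.93), VEGFA (11.9 ± 2.02), ANGPTL4 (8.03 ± 2.53), HGF (6.50 ± 1.13), ANGPT1 (2.86 ± 0.296), VEGFD (0.931 ± 0.791), PGF (0.243 ± 0.0591) and ANGPT2 (0.0357 ± 0.0356). FGF2 and VEGFA overlapped between libraries, as did VEGFA and ANGPTL4, and ANGPTL4 and HGF. In MmC+/GDF11- FGF2 stood first at 78.1 ± 16.1 FPKM but overlapped VEGFB at 72.3 ± 11.1. VEGFC (37.7 ± 6.50), ANGPTL4 (29.3 ± 7.09) and VEGFA (26.4 ± 9.30) followed, each overlapping its neighbour, then ANGPT1 (4.60 ± 0.808) and HGF (4.31 ± 1.78), which also overlapped. The place of VEGFA depends on its length: with the canonical transcript of 3609 bases instead of the joined exons of 14431 bases it had 106 ± 37.2 FPKM in MmC+/GDF11- and came first. In MmC-/GDF11- canonical lengths put VEGFA at 47.8 ± 8.09 FPKM, above VEGFC at 32.0 ± 2.39. The order of FGF2 and VEGFB in MmC+/GDF11- depends on length too: with the longest transcripts VEGFB had 78.9 ± 12.1 and FGF2 78.1 ± 16.1 FPKM.

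Summed over the 10 genes, the level was 142 ± 9.47 FPKM (133 to 155) in MmC-/GDF11- and 257 ± 36.2 FPKM (219.8 to 303) in MmC+/GDF11-. With GDF11 it was 139 ± 8.88 FPKM in young and 249.7 ± 20.8 FPKM in senescent MSCs. The share of FGF2 was 11.4 ± 2.57% in MmC-/GDF11- and 30.2 ± 2.72% in MmC+/GDF11-, that of VEGFB 47.6 ± 4.98% and 28.2 ± 2.53%, and that of ANGPTL4 5.60 ± 1.46% and 11.3 ± 1.17%. PGF, with the largest fold change, made up 0.171 ± 0.0404% and 0.723 ± 0.344%. The share of HGF was 4.59 ± 0.852% in young and 1.74 ± 0.926% in senescent MSCs without GDF11.

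**Figure D4:**
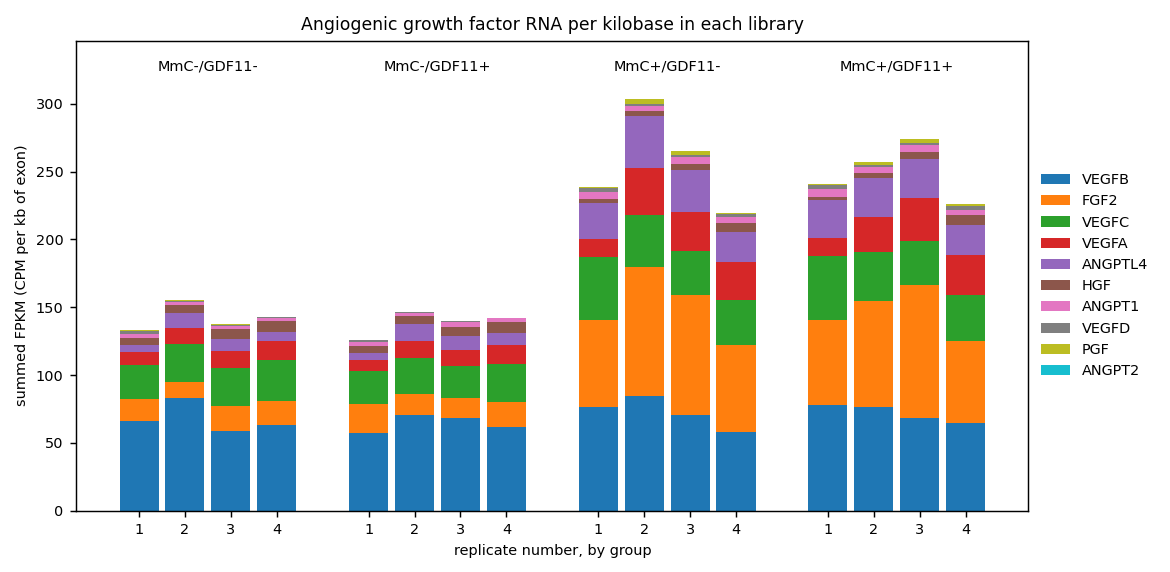
Summed FPKM of the 10 genes in each of the 16 libraries (1 bar per library, by group and replicate number, axis from 0), with each gene as 1 colour. Young libraries reached 126 to 155 FPKM and senescent ones 219.8 to 303 FPKM, and without GDF11 the share of FGF2 went from 11.4% to 30.2% of the sum with joined-exon lengths and from 8.30% to 21.5% with canonical lengths.

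Receptors for the set were read from 3 lists. The list counts here and below are to be read beside all genes tested. Of these 22.9% rose and 22.4% fell without GDF11, and 23.4% and 23.3% with it. Of 5 VEGF receptor genes 3 rose without GDF11 and 2 with it. NRP2, a co-receptor for VEGFC and VEGFD, rose from 46.2, 13.7, 15.8 and 17.8 CPM to 65.4, 69.9, 65.9 and 65.3 CPM without GDF11 (2.85-fold, adjusted p = 0.00241, edgeR), and was also called with GDF11 (3.20-fold, adjusted p = 0.00116). FLT1 rose 2.78-fold and 2.30-fold from a low level (0.237 to 0.666 CPM without GDF11). KDR rose without GDF11 (6.34-fold, adjusted p = 0.00106) and was not called with it (adjusted p = 0.131), on 8 and 54 counts over the 4 libraries of each group without GDF11, and the interaction was not called (adjusted p = 1). FLT4 was below the filter, with 2 counts in the 4 MmC-/GDF11- libraries together and 26 in the 4 MmC+/GDF11- libraries, and NRP1 was at 319 to 457 CPM and not called. Of 3 angiopoietin receptor genes the phosphatase PTPRB rose 2.39-fold and 2.10-fold, and TEK was at 38.2 to 103 CPM with adjusted p of 0.129 and 0.221. Of 6 FGF and HGF receptor genes FGFR1 rose 1.67-fold and 1.69-fold, from 225 ± 6.49 to 377 ± 48.3 CPM without GDF11. FGFR3 rose without GDF11, on 6 and 74 counts (with GDF11 adjusted p = 0.0569, interaction not called), the decoy receptor FGFRL1 fell (ratios 0.830 and 0.828), and MET, the receptor of HGF, was not called (adjusted p = 0.63 and 0.834). FGFR2 was below the filter, and FGFR4 was not called.

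Genes on a list for the trimming of VEGFC changed in both directions. Of its 7 genes 4 fell and 2 rose in both MmC comparisons, where 45.3% and 46.7% of all genes tested were called. CCBE1, the scaffold on which VEGFC is cleaved, fell from 138, 140.0, 163 and 178 CPM to 95.0, 50.8, 53.7 and 57.5 CPM without GDF11 (ratio 0.415, adjusted p = 0.000215, edgeR), with no overlap. ADAMTS3, the protease of that step, was at 0.624 ± 0.145 CPM and fell to a ratio of 0.720 (adjusted p = 0.0456), and its relatives ADAMTS14 (0.558) and ADAMTS2 (0.608) fell too. The proprotein convertases FURIN (1.46-fold, adjusted p = 0.000312) and PCSK5 (2.22-fold, adjusted p = 0.00605) rose, and PCSK7 was not called. Of 7 genes that activate HGF or block its activation 4 were below the filter (HGFAC, ST14, HPN and SPINT1). The other 3 rose in both comparisons: PLAT 2.12-fold and PLAU 1.41-fold without GDF11, and the inhibitor SPINT2 3.00-fold from 0.451 ± 0.154 CPM.

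**Figure D5:**
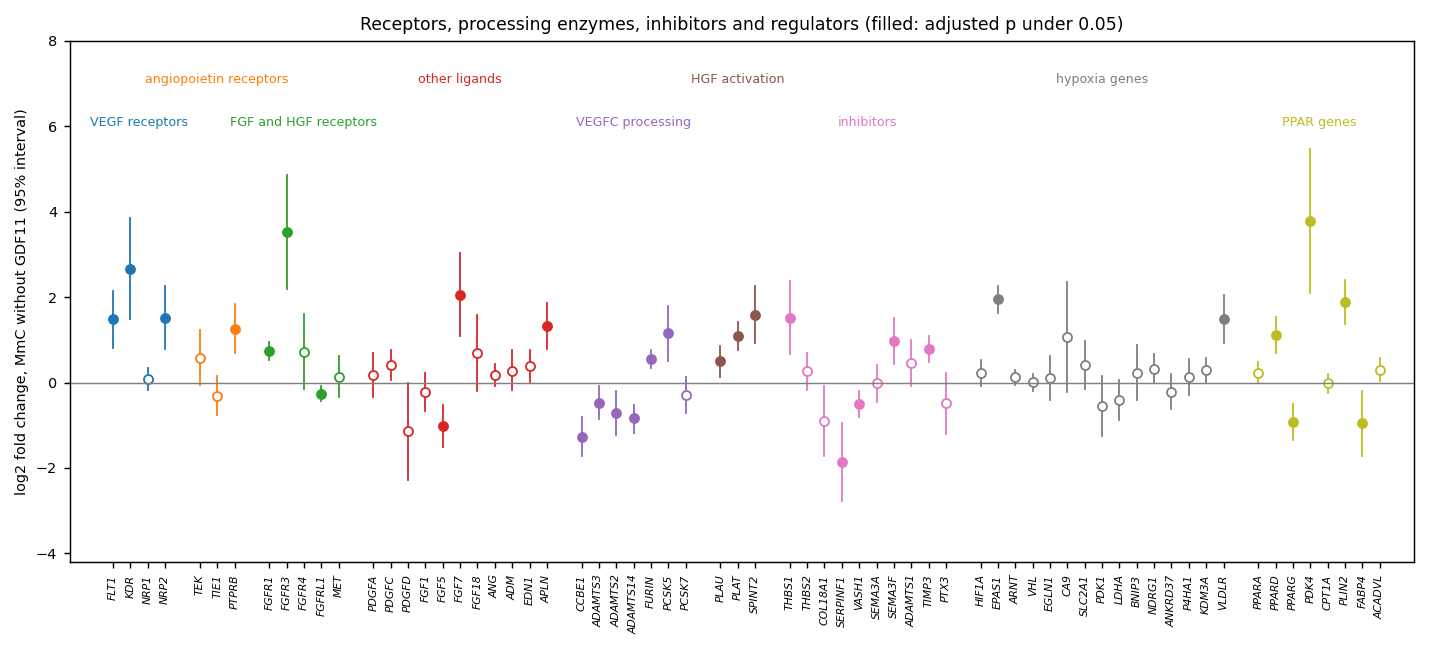
Log2 fold change after MmC without GDF11 (vertical axis, with 95% intervals from edgeR) of the tested genes of 9 lists around the set, with filled points for an adjusted p under 0.05. Members of the VEGFC processing list lay on both sides of 0 (CCBE1 at -1.27, PCSK5 at 1.15). Among the hypoxia genes, a list that includes regulators such as EPAS1, only EPAS1 (1.95) and VLDLR (1.49) were called.

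Other ligands and inhibitors were mixed as well. Of 12 further angiogenic ligands 2 rose without GDF11, FGF7 (4.15-fold, adjusted p = 0.00206, edgeR) and the peptide APLN (2.49-fold, adjusted p = 0.000623), and FGF5 fell (ratio 0.494). With GDF11 PDGFC was called in addition (1.35-fold, adjusted p = 0.0473). PDGFB was below the filter. FGF7 had 80.5 CPM in replicate 1 of MmC+/GDF11-, within the range of the young libraries (40.3 to 81.4 CPM), and 184 to 343 CPM in the others. Of 10 inhibitors 3 rose and 2 fell in both comparisons, near the shares of all genes called (45.3% without and 46.7% with GDF11). Thrombospondin THBS1 rose 2.86-fold, from 2129 ± 1195 to 6083 ± 2017 CPM, SEMA3F 1.96-fold and TIMP3 1.72-fold, while SERPINF1 (ratio 0.275) and VASH1 (0.707) fell.

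Genes on a list for low oxygen were mostly not called. The list joins regulators (HIF1A, EPAS1, ARNT, VHL and others) with genes that low oxygen induces, of which VEGFA and ANGPTL4 are classic examples. Of 15 tested on a list of 16, EPAS1 and VLDLR rose in both comparisons and 13 were not called, with a median log2 fold change of 0.22 without GDF11. EGLN3 was below the filter. EPAS1, which encodes HIF-2 alpha, rose from 204, 125, 140.2 and 167 CPM to 704, 567, 531 and 662 CPM (3.88-fold, adjusted p = 1.45e-07), and HIF1A was at 639 ± 106 and 742 ± 109 CPM (adjusted p = 0.243). The hypoxia genes CA9, SLC2A1, LDHA, PDK1 and BNIP3 were among those not called. Of 8 tested genes on a list of PPAR factors and targets, chosen because ANGPTL4 is a target, 3 rose (PDK4 13.7-fold from 0.170 ± 0.0742 CPM, PLIN2 3.68-fold and PPARD 2.17-fold) and 2 fell (PPARG, ratio 0.526, and FABP4, 0.518).

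Markers of other cell types were read beside these changes. The summed level of 7 endothelial markers was 9.28 to 12.9 CPM in MmC-/GDF11- and 10.5 to 23.7 CPM in MmC+/GDF11-, with PECAM1, VWF and ERG higher and CDH5 lower in both comparisons (PECAM1 2.41-fold, CDH5 ratio 0.352 without GDF11), and EMCN lower with GDF11. CLDN5 was below the filter, with 10 and 20 counts in the 4 libraries of each group. PECAM1 was at 5.86 CPM in replicate 1 of MmC+/GDF11-, inside the young range. The 5 pericyte markers summed to 120.0 to 158 and 162 to 168 CPM, with NOTCH3 higher and CSPG4 lower. Of 4 blood cell markers CD14 rose in both comparisons, PTPRC with GDF11, and LST1 was at 0 counts in all libraries. The 2 epithelial markers had no call, and EPCAM was below the filter. Their part in the changes of the set was not tested.

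Likeness of expression was read as Pearson's r of log2 CPM across the 16 libraries, over 11082 protein-coding genes with a mean of at least 1 on the log2 CPM scale. The libraries share a line and a batch label and MmC separates them into clusters, so r is a description with no test. The most similar genes were MEDAG (0.995), CYRIA (0.991) and PI3 (0.990) for PGF, RAI14 (0.994), FOXE1 (0.992) and INHBA (0.991) for FGF2, and CD163L1 (0.985), PHLDA1 (0.983) and TMEM158 (0.982) for VEGFA. For ANGPTL4 they were RNF121 (0.979), H1-2 (0.978) and SMIM3 (0.976), and for HGF NOVA1 (0.962), LIN7A (0.961) and LCORL (0.960). VEGFB was most like CRAT (0.955), MOB3A (0.937) and ABHD8 (0.921), VEGFC like SLC35E3 (0.974), EXT1 (0.966) and PRKX (0.965), and VEGFD like PAPPA2 (0.981), APOD (0.975) and GAA (0.973). For ANGPT1 they were LEPROTL1 (0.969), TMEM68 (0.956) and CEPT1 (0.955), and for ANGPT2 RBMS3 (0.961), PPIC (0.958) and OMD (0.949). When the group means were taken out, the r of VEGFA was 0.74 with HGF, 0.67 with PGF, -0.80 with ANGPT2 and -0.67 with VEGFD, in which replicate 1 stood at opposite ends.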

How the data were processed

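RNA was sequenced from 16 cultures, 4 biological replicates in each of 4 groups, as poly(A) RNA with a directional kit. The authors aligned reads to GRCh38 (hg38) with HISAT2 2.2.1 and deposited raw counts per gene from featureCounts 2.0.1; use of strand, counting of pairs and of reads with several matches are not given in the sources used here. No values were normalized before deposit. Sample titles gave the group and the replicate number, and identifiers were named with GENCODE on hg38 (186 had no match). In edgeR 4.0.16 (R 4.3.3) genes were filtered (filterByExpr, minimum count 10, minimum total 15), scaled by TMM and tested by the robust quasi-likelihood method in 1 fit over all 16 libraries, without a block, with Benjamini-Hochberg adjustment over 19103 genes at 0.05. The cultures come from 1 line, so p-values measure the spread between cultures of that line. FPKM was computed from TMM-scaled CPM and the joined exons.

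Same-numbered libraries were checked for shared deviations from the group means. Over genes every pair had r over 0.1 for MmC without GDF11 (0.368, 0.197, 0.113 and 0.235) and for GDF11 in senescent MSCs (lowest 0.448). These comparisons were taken as paired. MmC with GDF11 (0.311, 0.16, 0.0293 and 0.266) and GDF11 in young MSCs (0.504, 0.264, 0.0982 and 0.502) were not, because of replicate 3 alone. Most same-numbered pairs thus deviated together there too. The titles give the numbers and no shared batch or day; the study names batch effects among its limits without saying which libraries they touch. All replicate pairs within groups differed beyond sampling noise (chi-square per gene at least 56.9). Pairs with replicate 1 differed most in senescent MSCs. They had 533 to 600 in MmC+/GDF11-, against 68.3 to 190 in the other pairs, and 461 to 628 in MmC+/GDF11+, against 56.9 to 182. In the young groups these ranges overlapped.

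The 10 genes and all lists were chosen with earlier results of these data known. Named were the 10 genes, up to 3 genes per list called in both MmC comparisons with the largest change, genes below the filter, and the 3 most similar genes of each; other list genes were named after their values were seen, and 1 list gene is not reported here. Alternatives were other scalings and filters, fits of the compared libraries only, a replicate block, limma-voom (limma 3.58.1), DESeq2 1.42.0, glmTreat at a log2 threshold of 1, leaving out libraries and, for levels, the longest transcript. A block without replicate 1 and the canonical transcript length were added after seeing the data.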

Additional observations from a re-analysis of the deposited data

Results flagged for a closer look

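Within the groups of 4, 23 of 184 sets of values (the 10 genes, the named list genes and the ratio of the angiopoietins) had a highest or lowest library whose gap to the nearest other exceeded Dixon's critical value, a limit that chance passes in about 1 in 20 groups. The library was replicate 1 in 19 of them, replicate 4 in 3 and replicate 2 in 1. Genes are not independent of each other here, since the same libraries recur.

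ANGPT2 was highest in replicate 1 at 0.264 CPM in MmC-/GDF11+ (0.134 to 0.148 in the others), 0.122 CPM in MmC+/GDF11- (0.0223 to 0.0345) and 0.219 CPM in MmC+/GDF11+ (0.0305 to 0.0614). As a share of ANGPT1 per length it was 0.599% in replicate 1 of MmC+/GDF11+ and 0.0973 to 0.167% in the others. ANGPTL4 was lowest in replicate 4 of MmC+/GDF11+, at 56.2 CPM against 68.9 to 70.7.

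NRP2 was highest in replicate 1 of MmC-/GDF11- (46.2 CPM, others 13.7 to 17.8) and of MmC-/GDF11+ (34.0 CPM, others 14.3 to 16.8), and in replicate 2 of MmC+/GDF11- (69.9 CPM, others 65.3 to 65.9). FGFRL1 reached 54.8 CPM in replicate 1 of MmC+/GDF11+ (others 46.7 to 47.8). Among the genes that process VEGFC, replicate 1 was highest for PCSK5 in MmC-/GDF11- (1.21 CPM, others 0.530 to 0.642) and for CCBE1 in MmC+/GDF11- (95.0 CPM, others 50.8 to 57.5), and lowest for ADAMTS14 in MmC-/GDF11+ (11.9 CPM, others 13.5 to 13.8).

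Of the inhibitors, SERPINF1 was highest in replicate 1 of MmC-/GDF11- (140.3 CPM, others at most 46.8) and MmC+/GDF11- (26.2 CPM, others 14.5 to 15.5). THBS1 was highest in replicate 1 of MmC-/GDF11+ (4080.3 CPM, others 1406 to 1549), MmC+/GDF11- (9106 CPM, others 4982 to 5181) and MmC+/GDF11+ (8648 CPM, others 4891 to 5183). SEMA3F was lowest in replicate 1 of MmC+/GDF11+ (67.8 CPM, others 132 to 143). VLDLR was highest in replicate 1 of MmC+/GDF11+ (5.59 CPM, others 3.06 to 3.08), and ERG in replicate 1 of MmC-/GDF11- (1.42 CPM, others 0.858 to 0.932) and MmC-/GDF11+ (1.49 CPM, others 0.920 to 0.952). PPARD was highest in replicate 4 of MmC-/GDF11- (66.0 CPM, others 50.6 to 53.0) and MmC-/GDF11+ (61.6 CPM, others 51.1 to 52.6).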

How the results depend on the processing

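No direction of the 10 genes was reversed among the called values. Against a log2 fold change of 1 (glmTreat), 3 of the 10 genes were called after MmC without GDF11 (PGF, ANGPTL4 and FGF2) and 2 with GDF11 (PGF and FGF2), and over all genes 1294 and 1235 in place of 8655 and 8926. With 1 library left out, 6 to 8 genes were called without GDF11, beside 39.1 to 46.9% of all genes tested. In each such fit 7 were called with GDF11, beside 39.7 to 48.3% of all genes, and 0 for GDF11 and the interaction. Where replicate 1 of every group was left out, 8 were called with GDF11, beside 52.6% of all genes. Without a filter VEGFD (adjusted p = 0.13) and ANGPT2 (adjusted p = 0.0504) were not called without GDF11, and in a fit of the compared libraries VEGFD was not (adjusted p = 0.0679). HGF was called there when replicate 4 of MmC+/GDF11- was left out (log2 -0.89, adjusted p = 0.023). With the canonical length 5, 5, 3 and 4 of the 10 genes kept their place in the order of FPKM (young without and with GDF11, then senescent without and with it), and with the longest transcript 6 and 6 did so in the MmC+ groups. ANGPT2 as a share of ANGPT1 ranged, with 1 library left out, over 0.681 to 1.50%, 0.697 to 0.878%, 0.0916 to 0.185% and 0.140 to 0.307% in the same order of groups.

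With the replicate block 9 of 10 genes were called in each MmC comparison (57.9% and 59.0% of all genes tested, without and with GDF11) and 0 for GDF11 and the interaction. For MmC with GDF11, where the numbers were not taken as pairing the cultures, the block added ANGPT2 (log2 -1.17, adjusted p = 0.0173) and HGF (log2 -0.53, adjusted p = 0.000947). The block without replicate 1, chosen after seeing the data, also called 9 in each (59.7% and 60.4% of all genes). ANGPT2, with 2 to 46 counts per library, is the gene most limited by depth.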
